A study of Mus musculus with 13 samples.

Results

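Loss of Eed was compared between its effect in small intestinal crypts taken from mice and its effect in small intestinal organoids grown in culture. The comparison rested on 8 of the 13 libraries of the series, all labelled run 385, with 2 libraries in each of 4 groups. The Eed KO crypts (genotype Eed-/-, C57BL/6-FVB mixed background) and the WT crypts (the same mixed background) came from mice given beta-naphthoflavone from 6 weeks of age for 6 weeks and were collected at 12 weeks of age. The Eed KO organoids (C57BL/6-FVB) were grown from AhCre;Eedf/f crypts and the WT organoids (FVB) from AhCre crypts, both kept in Matrigel and given beta-naphthoflavone for 10 days. AhCre is a Cre recombinase driven by a promoter that responds to the Ah receptor, and beta-naphthoflavone is the Ah receptor ligand that switches it on, so every group had received the inducer. Whole crypts and whole organoids were sequenced as bulk poly(A) RNA, and the share of cells that had lost Eed was not measured. For every gene the difference was taken as the crypt effect (Eed KO over WT crypts) minus the organoid effect (Eed KO over WT organoids), on the log2 scale, called the interaction below. A negative interaction therefore means that the log2 fold change of Eed KO over WT was lower in crypts than in organoids.

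EED is a core subunit of Polycomb repressive complex 2 (PRC2), in which EZH2 or EZH1 methylates lysine 27 of histone H3. EED also binds the methylated histone tail, and without it the complex is unstable. In the intestine PRC2 keeps genes of other tissues and of earlier developmental stages silent, together with the Cdkn2a locus, while crypt cells divide and give rise to absorptive enterocytes and to the secretory Paneth, goblet, enteroendocrine and tuft cells.

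The 8 libraries held between 11421666 and 13752066 gene counts, and values below are CPM, counts per 1000000 counts of the TMM-adjusted library size. Mitochondrially encoded genes took 16.5% and 18.0% of counts in Eed KO crypts and 12.4% and 14.5% in WT crypts, and 9.83% and 7.98% in Eed KO organoids and 9.17% and 8.19% in WT organoids. Xist, the X inactivation RNA, reached 1915 and 3592 CPM in Eed KO crypts and 1265 and 1384 CPM in WT organoids, while the Y-linked Ddx3y reached 48.9 and 54.0 CPM in Eed KO organoids and 33.0 and 54.0 CPM in WT crypts. The female expression pattern was thus carried by the Eed KO crypts and the WT organoids and the male pattern by the other groups. Sex therefore cannot be told apart from the crypt effect, the organoid effect or the interaction, and genes of chromosomes X and Y were left out. Strain background cannot be told apart from the organoid effect or the interaction. Length of induction between crypts and organoids cannot be told apart from the interaction either. Eed KO and WT crypts of a second run, labelled run 440 and 1 library each, both carried the female pattern (Xist 325 CPM and 1446 CPM) and are used below in place of the run 385 crypts. In that fit the lone crypt libraries are taken to vary like the organoids, and the organoids still differ in sex pattern and in strain. Both run 440 libraries are labelled with the mixed background, but for several genes given at the end the WT library resembled the WT organoids and the Eed KO library did not, so that strain and genotype cannot be told apart in the run 440 pair either.

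Summed markers of immune cells reached 773 and 933 CPM in Eed KO crypts and 223 and 255 CPM in WT crypts, but 8.25 and 4.70 CPM in Eed KO organoids and 3.47 and 3.42 CPM in WT organoids. Of the 26 immune markers tested, 14, among them Cd3e, Cd8a, Igha, Jchain and Adgre1, had no count in any organoid library. Igha, the IgA heavy chain, stood at 339 and 461 CPM in Eed KO crypts and 49.0 and 81.9 CPM in WT crypts. Summed markers of mesenchyme, muscle and endothelium were at 253 and 410 CPM in Eed KO crypts and 80.4 and 236 CPM in WT crypts. Organoids held 63.4 and 31.3 CPM with Eed KO and 7.24 and 13.8 CPM in WT, and Col3a1, Lum and Mgp had no organoid count. Epithelial markers summed to 7850 and 8060 CPM in Eed KO crypts, 10766 and 9393 CPM in WT crypts, 11717 and 10470 CPM in Eed KO organoids and 10772 and 9940 CPM in WT organoids, so all libraries matched their epithelial label. Of the 12 epithelial markers, 6 fell and 0 rose in Eed KO crypts at an adjusted p under 0.05 in edgeR. In organoids 1 rose and 1 fell, and 4 had a lower interaction. The part of non-epithelial cells in each crypt result was not tested. In bulk samples, fewer cells of a type and less RNA per cell cannot be told apart.

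Many genes differed between Eed KO and WT in both settings, where sex pattern differed along with genotype. Most genes that rose did not pass the test of a difference between crypts and organoids, and nor did most tested genes. Of 14009 genes tested, 2503 rose (17.9%) and 1928 fell (13.8%) in Eed KO against WT crypts, and 1930 rose (13.8%) and 454 fell (3.24%) in Eed KO against WT organoids. Genes that rose in both numbered 1155, which is 46.1% of those that rose in crypts and 59.8% of those that rose in organoids. Genes that fell in both numbered 214, which is 11.1% of those that fell in crypts and 47.1% of those that fell in organoids. The interaction itself passed an adjusted p of 0.05 in edgeR's quasi-likelihood test for 380 genes with a higher crypt effect (2.71%) and for 919 genes with a lower crypt effect (6.56%). These shares of all tested genes are the ones to read beside the list counts below. Across the tested genes the 2 effects, which share no library but share the run and the scaling, had a Pearson r of 0.572 and a Spearman rho of 0.517.

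**Figure D1:**
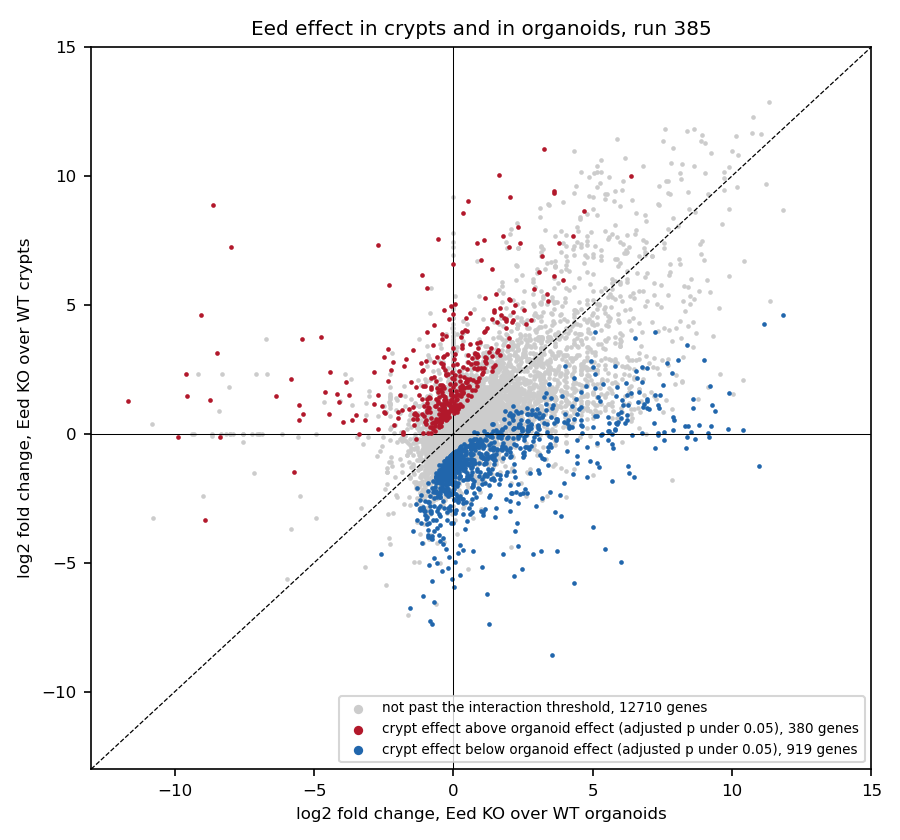
Log2 fold change of Eed KO over WT in crypts (vertical axis) against the same in organoids (horizontal axis), 1 point per gene for 14009 genes, with the 380 genes of higher and the 919 genes of lower crypt effect coloured. The lower calls spread below the dashed line of equal effects, some at negative crypt values with organoid values near 0 and others at positive organoid values with crypt values near 0.

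The genes past the interaction threshold fell into a few patterns. Of the 919 with a lower crypt effect and the 380 with a higher one together, 458 fell in crypts alone, 241 rose in organoids alone, 203 rose in crypts alone and 51 fell in organoids alone. Another 128 moved past the threshold in opposite directions, 86 of them falling in Eed KO crypts and rising in Eed KO organoids and 42 the other way. Of the 1155 genes that rose in both settings, 140 passed the interaction test, 72 rising further in crypts and 68 rising less. Of the 214 that fell in both, 53 passed it and 51 of these fell further in crypts. Over all 14009 tested genes, 1299 passed it. In 722 of the 1299 called genes (55.6%) Eed KO crypts and Eed KO organoids lay closer together than WT crypts and WT organoids did, against 46.5% of all tested genes. The called genes were picked by the difference between these same gaps, so comparing the shares is not a test. The fewest calls came without WT crypt 1, which left 208 higher and 527 lower. Without WT crypt 2 there were 240 and 563, without WT organoid 1 242 and 551, and without WT organoid 2 245 and 563.

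Eed itself lost transcript in both settings, and no difference between them passed. Eed (ENSMUSG00000030619, chr7:89954656-89980983, GRCm38) stood at 16.4 and 25.8 CPM in Eed KO crypts and 54.3 and 61.9 CPM in WT crypts, and at 19.7 and 31.2 CPM in Eed KO organoids and 75.3 and 63.9 CPM in WT organoids. Every Eed KO library was below every WT library in both settings. The log2 fold changes were -1.46 in crypts (adjusted p = 0.0022) and -1.45 in organoids (adjusted p = 0.0037), and the interaction was -0.01 ± 0.36 (SE; adjusted p = 1). Which part of the gene was deleted is not given in the labels, so reads outside a deleted part count toward these values. Of 11 PRC2 subunits tested, 2 rose and 4 fell in crypts and 1 fell in organoids, with 1 higher and 1 lower interaction call.

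Those calls fell on Epop and on Ezh2. Epop, an accessory PRC2 subunit, was at 14.5 and 6.55 CPM in Eed KO crypts and 0.819 and 0.470 CPM in WT crypts. Organoids held 17.6 and 15.7 CPM with Eed KO and 9.56 and 15.4 CPM in WT, and its interaction was 3.59 ± 0.64 (adjusted p = 0.0072). WT crypts were the only group with little Epop. Ezh2, the catalytic subunit, was at 53.5 and 54.7 CPM in Eed KO crypts and 92.8 and 97.7 CPM in WT crypts, with 107 and 95.8 CPM in Eed KO organoids and 109 and 108 CPM in WT organoids. Its interaction of -0.72 ± 0.19 (adjusted p = 0.042) was lost under 9 of 18 alternative settings. For the 19 PRC1 subunits, which read the mark that PRC2 writes, 7 rose in crypts and 3 in organoids. Neither edgeR nor DESeq2 called a PRC1 interaction, and 3 had an unadjusted p under 0.05.

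Polycomb targets known from other tissues rose in both settings, and most had too few WT counts for their interaction to be well determined. Hox genes, homeobox factors of body axis patterning, rose widely: 33 of 35 tested rose in Eed KO crypts (17.9% of all genes rose there) and 28 rose in Eed KO organoids (13.8% of all genes). A single Hox gene passed the interaction test with a higher crypt effect (2.71% of all genes). List medians are given here with a group of at most 3 counts set to 3 counts, and genes at that floor in both groups left out. On that scale the Hox median log2 fold change was 5.21 in crypts, 4.09 in organoids and 1.07 for the interaction, beside 0.05, 0.02 and -0.07 over all tested genes. Of the 35 Hox genes, 20 had at most 3 counts in both WT groups and 12 had none at all, which leaves their interaction barely determined by the counts.

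Hoxb13 (chr11:96194316-96197447), the Hox factor of the hindgut end of the axis, was at 52.3 and 53.2 CPM in Eed KO crypts and 0 and 0 CPM in WT crypts. Organoids held 12.4 and 24.2 CPM with Eed KO and 0 and 0 CPM in WT. Against a floor of 3 counts over each WT group it was at least 380-fold higher in crypts and at least 148-fold higher in organoids, and the interaction had an adjusted p of 1. Hoxa10 was at 58.0 and 64.9 CPM in Eed KO crypts and 0.273 and 0 CPM in WT crypts, and at 42.0 and 34.6 CPM in Eed KO organoids and 0 and 0 CPM in WT organoids. Both genes were silent or nearly so in every WT library and present in every Eed KO library.

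Developmental transcription factors of other tissues also rose widely, 61 of 72 tested in Eed KO crypts and 57 in Eed KO organoids (17.9% and 13.8% of all genes). Of the 72, 4 had a higher and 1 a lower interaction (2.71% and 6.56% of all genes). Their median log2 fold change was 5.25 in crypts, 3.37 in organoids and 1.35 for the interaction, and 49 of the 72 had at most 3 counts in both WT groups. Zic2 (chr14:122475435-122479852), a zinc finger factor of the developing nervous system, was at 25.6 and 18.6 CPM in Eed KO crypts and 0 and 0 CPM in WT crypts, so at least 160-fold higher. In organoids it was at 12.3 and 12.4 CPM with Eed KO and 0.539 and 2.11 CPM in WT, a log2 rise of 3.24, and the interaction had an adjusted p of 0.013. Its neighbour in the family, Zic5, was at 16.9 and 20.8 CPM in Eed KO crypts and 0 and 0.188 CPM in WT crypts, against 5.48 and 5.28 CPM in Eed KO organoids and 2.00 and 2.98 CPM in WT organoids (adjusted p = 0.00069). For both genes the WT organoids already held transcript that WT crypts lacked. Sox21, a SOX family factor, was at 8.99 and 8.90 CPM in Eed KO crypts and 0.273 and 0.282 CPM in WT crypts. Organoids held 18.1 and 11.5 CPM with Eed KO and 16.8 and 14.5 CPM in WT, with an interaction of 5.04 ± 0.50 (adjusted p = 0.00029). The Sox21 interaction was 2.99 with the run 440 crypts in place (adjusted p = 0.013).

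Genes of the fetal and regenerating epithelium rose as widely in one setting as in the other. Of 25 tested, 21 rose in Eed KO crypts and 20 in Eed KO organoids, with medians of 3.40 and 3.39. Higher interactions numbered 3 and lower ones 1 (2.71% and 6.56% of all genes). Areg, the EGF family ligand amphiregulin, was at 8.03 and 8.12 CPM in Eed KO crypts and 0.273 and 0.282 CPM in WT crypts, and at 93.5 and 74.9 CPM in Eed KO organoids and 23.4 and 38.6 CPM in WT organoids. Its log2 rise was 4.81 in crypts and 1.44 in organoids, an interaction of 3.37 ± 0.54 (adjusted p = 0.0038), and its level was highest in the organoids whatever the genotype. Basp1, a membrane-associated signalling protein, went the other way at -4.04 ± 0.77 (adjusted p = 0.0094), since WT organoids had 0.617 and 0.351 CPM and WT crypts already 2.64 and 2.91 CPM.

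Among 11 oncofetal genes and RNA binding genes of fetal tissue, 9 rose in crypts and 8 in organoids. There were 1 higher and 2 lower interactions (2.71% and 6.56% of all genes). Igf2bp3, an mRNA binding protein, was at 51.8 and 43.9 CPM in Eed KO crypts and 0.546 and 0.658 CPM in WT crypts. Organoids held 83.8 and 65.1 CPM with Eed KO and 8.48 and 9.31 CPM in WT, an interaction of 3.22 ± 0.36 (adjusted p = 0.00056). The Eed KO libraries of both settings lay above all WT libraries, and the WT organoids lay above the WT crypts. Afp, alpha-fetoprotein, fell in crypts to 0.482 and 0.349 CPM with Eed KO, against 25.2 and 16.9 CPM in WT crypts, and was at 53.4 and 32.9 CPM in Eed KO organoids and 47.8 and 40.6 CPM in WT organoids (interaction -5.59 ± 0.50, adjusted p = 0.00015). On the run 440 crypts the Afp interaction was -1.69 (adjusted p = 0.063).

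Of 26 imprinted genes, which are expressed from 1 parental copy, 15 rose in crypts and 12 in organoids. Higher interactions numbered 3 and lower ones 1 (2.71% and 6.56% of all genes). Igf2, the fetal growth factor, was at 80.0 and 54.2 CPM in Eed KO crypts and 1.82 and 1.22 CPM in WT crypts, and at 77.5 and 83.9 CPM in Eed KO organoids and 0.539 and 1.32 CPM in WT organoids. The 2 Eed KO groups overlapped in level, and the interaction of -1.01 ± 0.53 did not pass (adjusted p = 0.31). Phlda2, an imprinted growth regulator of the placenta, rose in crypts and did not pass in organoids, at 3.69 and 6.11 CPM in Eed KO crypts and 0.819 and 0.658 CPM in WT crypts. Organoids held 5.39 and 5.44 CPM with Eed KO and 6.47 and 7.64 CPM in WT (interaction 3.09 ± 0.51, adjusted p = 0.005).

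**Figure D2:**
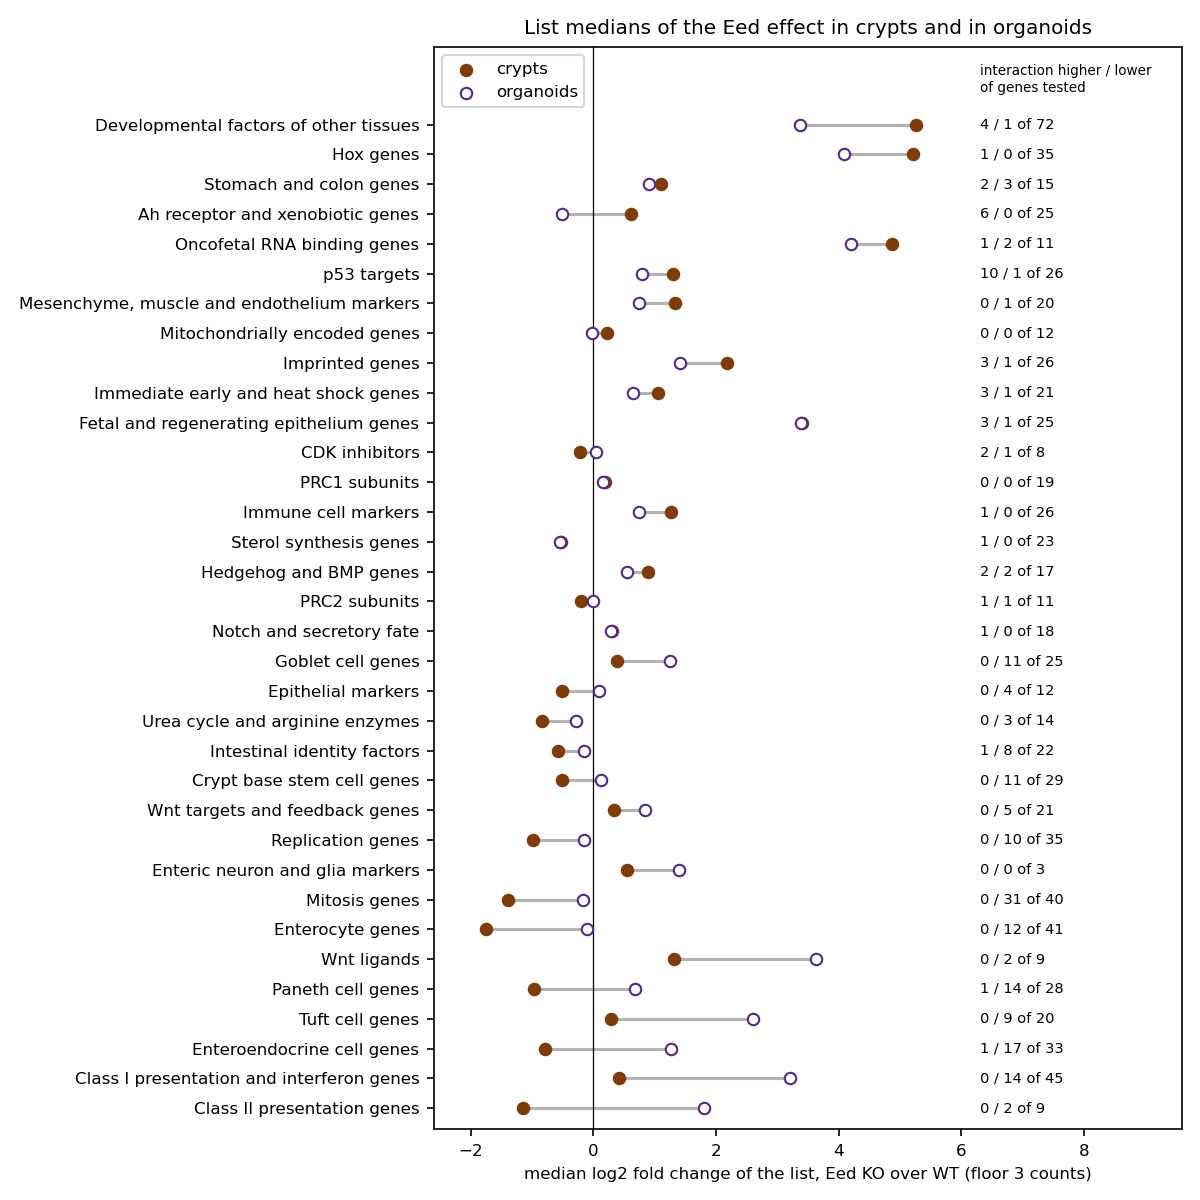
Median log2 fold change of Eed KO over WT in crypts and in organoids for each of the 34 gene lists, in order of the median interaction, with groups of at most 3 counts set to 3 counts and the number of members past the interaction threshold printed at the right. Hox genes and developmental factors lie far to the right in both settings, while class I presentation and interferon, enteroendocrine, tuft and Paneth genes lie further right in organoids than in crypts.

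Of 8 CDK inhibitors, 3 rose and 3 fell in crypts and 2 rose and 1 fell in organoids, with medians of -0.22 and 0.04. Higher interactions numbered 2 and lower ones 1 (2.71% and 6.56% of all genes). The lower call was Cdkn3, a phosphatase of cyclin-dependent kinases, at -1.67 ± 0.40 (adjusted p = 0.028; -0.76 and 0.36 with the run 440 crypts in place). The higher calls were Cdkn2a and Cdkn1a. Cdkn2a (chr4:89274471-89294653), which encodes the CDK inhibitor p16Ink4a and the p53 activator p19Arf, was at 53.9 and 62.6 CPM in Eed KO crypts and 0.091 and 0 CPM in WT crypts. Organoids held 55.6 and 47.2 CPM with Eed KO and 0.694 and 0.527 CPM in WT. The Eed KO levels overlapped between settings and the WT levels did not. With 1 count in WT crypts, the crypt ratio was 1255 (95% counting interval 225 to 49608), the organoid rise was 6.36 on the log2 scale, and the interaction had an adjusted p of 0.019. That call was lost without WT crypt 2, without WT organoid 1 and with DESeq2, with adjusted p between 0.0052 and 0.098 over 18 alternatives. Cdkn1a (chr17:29090979-29100722), the p53-induced CDK inhibitor p21, was at 302 and 203 CPM in Eed KO crypts and 39.8 and 35.0 CPM in WT crypts, against 253 and 274 CPM in Eed KO organoids and 124 and 170 CPM in WT organoids. Again the Eed KO levels overlapped between settings while WT organoids lay above WT crypts, and the interaction of 1.91 ± 0.31 (adjusted p = 0.0038) was 2.30 with the run 440 crypts in place (adjusted p = 0.0064).

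Of 26 p53 targets, 19 rose in crypts and 15 in organoids (17.9% and 13.8% of all genes). Higher interactions numbered 10 and lower ones 1 (2.71% and 6.56% of all genes). Medians were 1.30 in crypts, 0.79 in organoids and 0.48 for the interaction. Phlda3, a p53-induced repressor of AKT, was at 76.3 and 62.4 CPM in Eed KO crypts and 1.37 and 1.41 CPM in WT crypts, and at 58.8 and 36.7 CPM in Eed KO organoids and 7.17 and 5.62 CPM in WT organoids. Gdf15, a stress-induced TGF-beta family cytokine, was at 31.4 and 21.0 CPM in Eed KO crypts and 1.09 and 0.658 CPM in WT crypts, and at 28.9 and 19.5 CPM in Eed KO organoids and 6.70 and 8.34 CPM in WT organoids. Both showed Eed KO levels that overlapped or nearly met between settings and WT levels that were several-fold higher in organoids. Their interactions were 2.74 ± 0.41 (Phlda3, adjusted p = 0.0028) and 3.20 ± 0.48 (Gdf15, adjusted p = 0.0029), and that of Plk2, a p53-induced polo-like kinase, was 2.51 ± 0.33 (adjusted p = 0.0014). The 10 higher calls became 5 without WT crypt 1, without WT crypt 2, without WT organoid 1 and without WT organoid 2, and 6 without Eed KO organoid 2. The fit on run 440 crypts gave 4.

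Proliferation genes fell in Eed KO crypts and moved little in Eed KO organoids. Of 40 mitosis genes, 39 fell in crypts (13.8% of all genes fell there) and 2 fell in organoids (3.24%), and 31 had a lower interaction (6.56%). The median log2 fold change was -1.40 in crypts, -0.17 in organoids and -1.13 for the interaction. Summed over the list, Eed KO crypts held 1808 and 1702 CPM and WT crypts 4512 and 4525 CPM, while Eed KO organoids held 4399 and 3935 CPM and WT organoids 4821 and 4533 CPM. Both Eed KO crypt libraries thus lay below every other library. Mki67 (chr7:135689788-135716379), which coats mitotic chromosomes and is absent from resting cells, was at 287 and 273 CPM in Eed KO crypts and 698 and 761 CPM in WT crypts, against 599 and 630 CPM in Eed KO organoids and 657 and 566 CPM in WT organoids. Its interaction was -1.39 ± 0.22 (adjusted p = 0.0036), and -3.04 with the run 440 crypts in place (adjusted p = 0.0031).

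The promoter of Ccnb2, which encodes the mitotic cyclin B2, is shown because it carries the element many mitosis genes share. The letters run 5′ to 3′ on the minus strand at chr9:70421505-70421804 (GRCm38.p6, RefSeq), from 250 bases before to 50 bases after the start, with both matches to TTTGAA, the core of the cell cycle homology region, in capitals.
Ccnb2 promoter: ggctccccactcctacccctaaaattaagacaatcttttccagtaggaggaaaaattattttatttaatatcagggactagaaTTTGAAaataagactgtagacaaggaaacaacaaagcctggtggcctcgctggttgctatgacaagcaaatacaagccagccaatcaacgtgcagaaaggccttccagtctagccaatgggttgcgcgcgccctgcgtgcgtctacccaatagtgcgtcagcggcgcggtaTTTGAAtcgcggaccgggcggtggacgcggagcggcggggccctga
TTTGAA on either strand was held by 23 of the 32 mitosis promoters with a RefSeq window (71.9%), and by 17 of the 23 whose genes had a lower interaction, beside 11.8% of 9829 windows of tested genes. Ccnb2 was at 28.7 and 24.3 CPM in Eed KO crypts and 98.6 and 87.6 CPM in WT crypts, and at 70.8 and 57.2 CPM in Eed KO organoids and 75.4 and 76.7 CPM in WT organoids. It fell by 1.81 on the log2 scale in crypts, had a log2 fold change of -0.25 in organoids that did not pass, and had an interaction of -1.56 ± 0.23 (adjusted p = 0.0026). With the run 440 crypts in place the Ccnb2 interaction was -0.75 and did not pass (adjusted p = 0.094). The interactions of Nusap1, a spindle protein, and Top2a, the topoisomerase that untangles chromosomes, were -1.57 ± 0.25 (adjusted p = 0.0038) and -1.50 ± 0.23 (adjusted p = 0.0029), and -2.08 and -2.46 with the run 440 crypts in place (adjusted p = 0.0064 and 0.0042). The 31 lower calls became 15 without WT crypt 1, 18 without WT organoid 2 and 20 without Eed KO organoid 1. The fit on run 440 crypts gave 22, and adding them to the run 385 crypts gave 13.

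DNA replication genes followed the same pattern with smaller differences. Of 35, 32 fell in Eed KO crypts and 1 fell in Eed KO organoids, with medians of -0.99 and -0.16, and 10 had a lower interaction. The promoter of Mcm5, a subunit of the replicative helicase, is shown on the plus strand at chr8:75109259-75109558 (GRCm38.p6, RefSeq) with the reverse-strand match to the E2F site TTTGGCGC in capitals.
Mcm5 promoter: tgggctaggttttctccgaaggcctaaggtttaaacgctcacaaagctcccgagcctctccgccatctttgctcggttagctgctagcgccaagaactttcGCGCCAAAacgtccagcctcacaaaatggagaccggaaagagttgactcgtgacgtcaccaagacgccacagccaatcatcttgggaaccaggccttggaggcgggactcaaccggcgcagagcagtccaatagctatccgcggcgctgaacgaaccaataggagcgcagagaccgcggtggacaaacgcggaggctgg
Either of the E2F letters TTTCCCGC and TTTGGCGC, on either strand, was held by 10 of 28 replication promoters (35.7%) and by 2 of the 8 with a lower interaction, beside 2.98% of all windows. Mcm5 was at 91.6 and 64.3 CPM in Eed KO crypts and 163 and 143 CPM in WT crypts, and at 191 and 158 CPM in Eed KO organoids and 174 and 176 CPM in WT organoids (interaction -0.97, adjusted p = 0.045; -0.47 and 0.23 with the run 440 crypts in place). Tk1, the thymidine kinase of S phase, had the most negative interaction of the list at -1.82 ± 0.22 (adjusted p = 0.001), from 25.2 and 20.3 CPM in Eed KO crypts and 85.4 and 87.2 CPM in WT crypts. Organoids held 70.4 and 58.9 CPM with Eed KO and 69.3 and 69.0 CPM in WT. The Eed KO crypts lay below all other libraries for both genes, and the Tk1 interaction was -1.03 on the run 440 crypts (adjusted p = 0.029). The count of 10 ranged from 2 to 22 when single libraries were left out: it was 2 without WT crypt 1, 3 without WT crypt 2, Eed KO organoid 1, WT organoid 1 or WT organoid 2, and 22 without Eed KO crypt 1. It was 4 with the run 440 crypts in place.

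**Figure D3:**
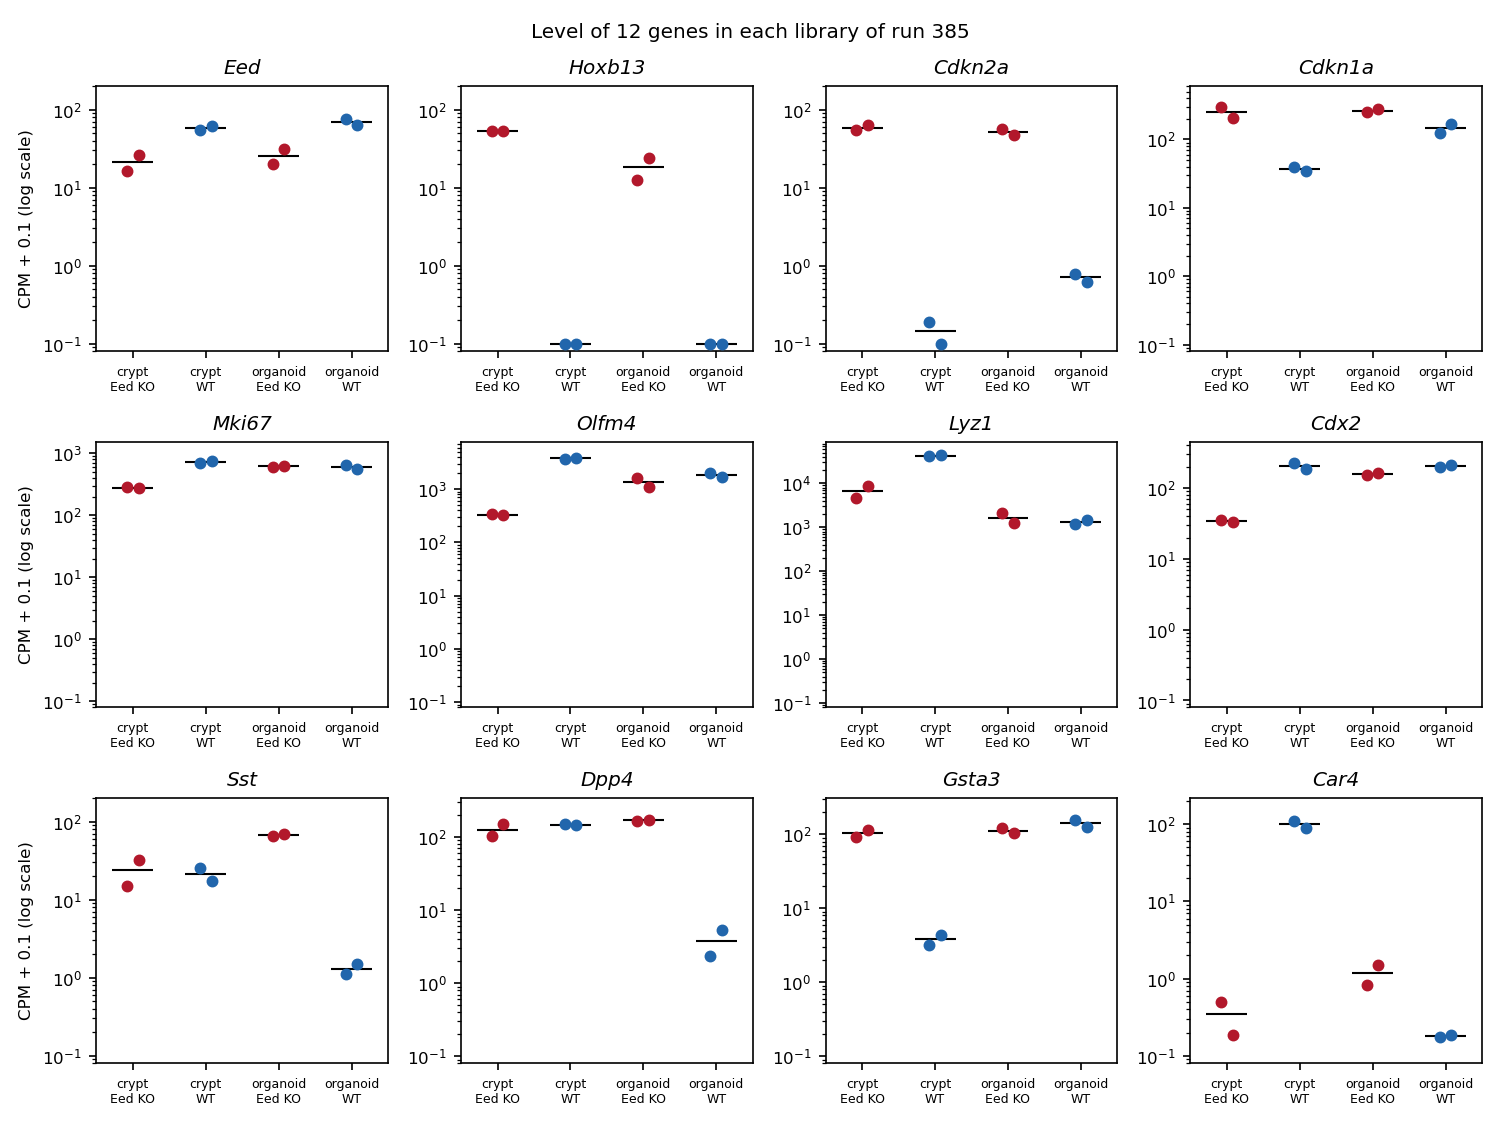
CPM plus a small offset, on a log axis, in each of the 8 libraries for 12 single genes, with 1 point per library, a line at the group mean, Eed KO left of WT and crypts left of organoids. Mki67, Olfm4 and Lyz1 are low in Eed KO crypts relative to WT crypts and level across organoids, while Sst and Dpp4 are low in WT organoids alone.

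Of 29 genes of the crypt base stem cells, 14 fell and 3 rose in Eed KO crypts, and 1 fell and 3 rose in Eed KO organoids. A lower interaction was called for 11 (6.56% of all genes). The median was -0.51 in crypts, 0.12 in organoids and -0.82 for the interaction. Olfm4 (chr14:80000302-80021930), a secreted glycoprotein of crypt base columnar cells, was at 338 and 325 CPM in Eed KO crypts and 3754 and 3833 CPM in WT crypts, against 1591 and 1090 CPM in Eed KO organoids and 2043 and 1717 CPM in WT organoids. Its interaction was -3.03 ± 0.29 (adjusted p = 0.00023), and -2.08 with the run 440 crypts in place (adjusted p = 0.015). Lgr5, the R-spondin receptor that marks the same cells, was at 59.5 and 40.5 CPM in Eed KO crypts and 106 and 119 CPM in WT crypts, and at 127 and 199 CPM in Eed KO organoids and 146 and 267 CPM in WT organoids. It fell by 1.17 on the log2 scale in crypts, and its interaction of -0.83 ± 0.46 did not pass (adjusted p = 0.34), with the organoid libraries of both genotypes overlapping. The other stem cell genes with the most negative interactions were Clca3b at -2.59 ± 0.45 and Tnfrsf19, a Wnt-induced receptor, at -2.43 ± 0.43 (adjusted p = 0.0073 and 0.0068). On the run 440 crypts Clca3b did not pass (-0.55, adjusted p = 0.34) and Tnfrsf19 did (-3.86, adjusted p = 0.011). The 11 calls became 6 without WT crypt 1 and 7 without WT crypt 2, and were 6 with the run 440 crypts in place.

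Among 21 Wnt targets and feedback genes, 5 rose and 4 fell in crypts and 9 rose in organoids. A lower interaction was called for 5 (6.56% of all genes). Bambi, a pseudoreceptor that dampens BMP signalling, was at 23.3 and 23.5 CPM in Eed KO crypts and 51.4 and 54.3 CPM in WT crypts, against 13.2 and 8.74 CPM in Eed KO organoids and 3.70 and 4.21 CPM in WT organoids. It fell by 1.18 in crypts and rose by 1.47 in organoids on the log2 scale (interaction -2.65 ± 0.31, adjusted p = 0.00076). Apcdd1, a Wnt inhibitor, was at 2.73 and 1.66 CPM in Eed KO crypts and 3.91 and 4.51 CPM in WT crypts, against 15.4 and 11.3 CPM in Eed KO organoids and 1.54 and 1.40 CPM in WT organoids (interaction -4.10 ± 0.49, adjusted p = 0.00085). Of 9 Wnt ligands, 5 rose in crypts and 7 in organoids, with 2 lower interactions. Wnt3, the ligand that Paneth cells supply to stem cells, was at 28.1 and 21.0 CPM in Eed KO crypts and 41.5 and 51.6 CPM in WT crypts, and at 21.2 and 12.0 CPM in Eed KO organoids and 9.09 and 6.67 CPM in WT organoids. It thus fell in crypts and rose in organoids (interaction -1.99 ± 0.41, adjusted p = 0.013). The 5 Wnt target calls became 9 without Eed KO crypt 1 and 3 without Eed KO crypt 2, and 2 without each of the other libraries except Eed KO organoid 2.

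In the secretory cell lists, members that fell in crypts stood beside members that rose in organoids. Of 28 Paneth cell genes, 14 fell and 4 rose in Eed KO crypts, 11 rose and 2 fell in Eed KO organoids, and 14 had a lower and 1 a higher interaction. Their median was -0.98 in crypts, 0.67 in organoids and -1.97 for the interaction. Summed, Paneth genes held 28649 and 38282 CPM in Eed KO crypts and 95156 and 96637 CPM in WT crypts, but 13046 and 8842 CPM in Eed KO organoids and 7125 and 7290 CPM in WT organoids. Lyz1 (chr10:117287796-117292868), the Paneth cell lysozyme, was at 4662 and 8461 CPM in Eed KO crypts and 41617 and 43496 CPM in WT crypts, against 2055 and 1273 CPM in Eed KO organoids and 1192 and 1434 CPM in WT organoids. It fell by 2.70 on the log2 scale in crypts, its organoid groups overlapped, and the interaction was -3.04 ± 0.44 (adjusted p = 0.0025), or -2.50 with the run 440 crypts in place (adjusted p = 0.017). Itln1, an intelectin, was at 3008 and 3372 CPM in Eed KO crypts and 14252 and 13013 CPM in WT crypts, against 3499 and 2213 CPM in Eed KO organoids and 1417 and 1667 CPM in WT organoids. Between 12 and 15 Paneth genes had a lower interaction when any library was left out, and 15 with the run 440 crypts in place. Defensin genes on this list are near-identical copies, and reads shared between them could have been counted to either.

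Goblet cell genes rose widely in organoids: 18 of 25 rose there, 12 rose and 6 fell in crypts, and 11 had a lower interaction. Clca1, a secreted component of mucus, was at 270 and 386 CPM in Eed KO crypts and 1597 and 895 CPM in WT crypts, against 323 and 356 CPM in Eed KO organoids and 48.2 and 87.0 CPM in WT organoids. It fell by 1.93 in crypts and rose by 2.33 in organoids on the log2 scale (interaction -4.26 ± 0.50, adjusted p = 0.0016), and it remained past the threshold with the run 440 crypts in place (-2.35, adjusted p = 0.028). Fer1l6, a ferlin family membrane protein, showed the same reversal, with 16.1 and 13.1 CPM in Eed KO crypts and 46.2 and 36.3 CPM in WT crypts. Organoids held 19.04 and 26.6 CPM with Eed KO and 4.86 and 7.11 CPM in WT (interaction -3.43 ± 0.36, adjusted p = 0.00038). On the run 440 crypts its interaction was -2.04 (adjusted p = 0.023). Muc2, the main gel-forming mucin, was at 765 and 787 CPM in Eed KO crypts and 911 and 849 CPM in WT crypts, and rose in organoids to 139 and 286 CPM with Eed KO, against 42.9 and 68.0 CPM in WT (interaction -2.12 ± 0.46, adjusted p = 0.022; -1.89 and 0.18 with the run 440 crypts in place). Spink4, a goblet cell trypsin inhibitor family member, rose in both settings, by 1.91 in crypts and 1.70 in organoids on the log2 scale, with an interaction of 0.20 ± 0.27 that did not pass (adjusted p = 0.74).

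The enteroendocrine list was the longest of the secretory lists and gave 17 lower interaction calls among 33 genes. Lower calls were 14 of 28 for Paneth, 11 of 25 for goblet and 9 of 20 for tuft genes, beside 6.56% of all genes. Of 33, 14 fell and 5 rose in Eed KO crypts, 17 rose in Eed KO organoids, and 17 had a lower and 1 a higher interaction, with a median of -0.79 in crypts, 1.27 in organoids and -2.17 for the interaction. Sst (chr16:23889581-23890844), the hormone somatostatin, was at 15.01 and 32.3 CPM in Eed KO crypts and 25.6 and 17.0 CPM in WT crypts, against 64.3 and 68.3 CPM in Eed KO organoids and 1.00 and 1.40 CPM in WT organoids. Its crypt groups overlapped, it rose by 5.78 on the log2 scale in organoids, and the interaction was -5.63 ± 0.56 (adjusted p = 0.00056), or -6.14 with the run 440 crypts in place (adjusted p = 0.0016). Gip, the incretin of K cells, was at 12.4 and 31.0 CPM in Eed KO crypts and 96.6 and 77.1 CPM in WT crypts, against 136 and 153 CPM in Eed KO organoids and 39.2 and 31.1 CPM in WT organoids. Gip fell in crypts by 2.00 and rose in organoids by 2.04 on the log2 scale (interaction -4.04 ± 0.51, adjusted p = 0.0028). Nts, neurotensin, was at 0.241 and 0.436 CPM in Eed KO crypts and 4.73 and 9.31 CPM in WT crypts, against 10.8 and 7.83 CPM in Eed KO organoids and 2.08 and 1.58 CPM in WT organoids. Nts therefore moved in opposite directions too (interaction -6.68 ± 0.67, adjusted p = 0.0003). Sct, the hormone secretin, was the member with a higher crypt effect, rising by 4.41 in crypts and 2.79 in organoids on the log2 scale (interaction 1.61 ± 0.25, adjusted p = 0.0035). Neurog3, the factor that starts the enteroendocrine lineage, fell in crypts to 3.13 and 1.92 CPM with Eed KO, against 13.7 and 10.9 CPM in WT, and was at 21.0 and 13.5 CPM in Eed KO organoids and 20.7 and 18.0 CPM in WT organoids (interaction -2.10 ± 0.42, adjusted p = 0.012). Neither Sct (0.44, adjusted p = 0.38) nor Neurog3 (-0.91, adjusted p = 0.24) passed with the run 440 crypts in place, while Gip (-3.56, adjusted p = 0.0031) and Nts (-3.35, adjusted p = 0.011) did.

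Tuft cell genes rose in organoids for 13 of 20 members and in crypts for 4, and 9 had a lower interaction, with a median of 0.29 in crypts, 2.60 in organoids and -2.01 for the interaction. Dclk1, a kinase that marks tuft cells, was at 56.5 and 33.8 CPM in Eed KO crypts and 78.3 and 50.2 CPM in WT crypts. Organoids held 9.40 and 8.49 CPM with Eed KO and 0.539 and 2.55 CPM in WT (interaction -3.08 ± 0.70, adjusted p = 0.033). The crypt groups of Dclk1 overlapped and the organoid groups did not. The tuft difference was not seen with the run 440 crypts in place, where the median fitted interaction of the list was 0.20 and that of Dclk1 0.25 (adjusted p = 0.91). In that run Dclk1 was at 37.2 CPM in the Eed KO crypt library and 5.29 CPM in the WT crypt library.

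**Figure D4:**
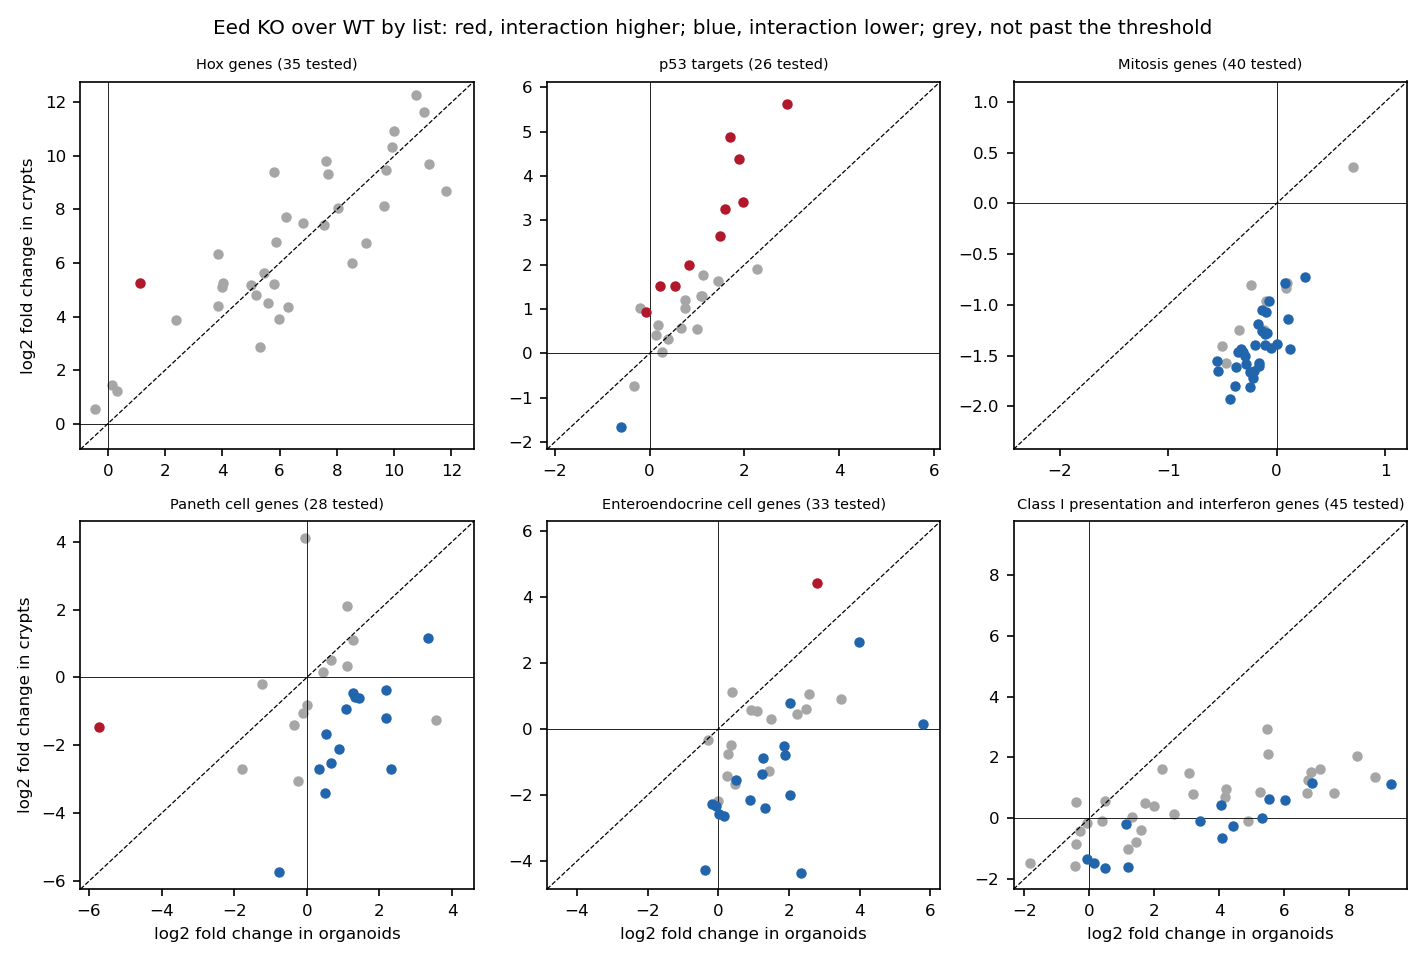
Log2 fold change of Eed KO over WT in crypts (vertical axis) against that in organoids (horizontal axis) for the members of 6 lists, with 1 point per gene and a dashed line of equal effects. Of the 40 mitosis genes, 39 sit below 0 in crypts with organoid values around 0, and enteroendocrine and class I presentation and interferon genes sit mostly above 0 in organoids and around or below 0 in crypts.

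Of 41 genes of absorptive enterocytes, 21 fell and 1 rose in Eed KO crypts, and 5 rose and 5 fell in Eed KO organoids. A lower interaction was called for 12 (6.56% of all genes). Medians were -1.75 in crypts, -0.11 in organoids and -1.36 for the interaction. Dpp4 (chr2:62330073-62412231), a brush border peptidase, was at 104 and 149 CPM in Eed KO crypts and 150 and 145 CPM in WT crypts, against 169 and 172 CPM in Eed KO organoids and 2.23 and 5.18 CPM in WT organoids. WT organoids were the single low group, and the interaction was -5.76 ± 0.42 (adjusted p = 7e-05), or -6.35 with the run 440 crypts in place (adjusted p = 0.0053). Lct, lactase, was at 1.36 and 0.349 CPM in Eed KO crypts and 48.7 and 18.6 CPM in WT crypts, against 118 and 111 CPM in Eed KO organoids and 26.4 and 14.4 CPM in WT organoids (interaction -7.73 ± 0.86, adjusted p = 0.0022). Lct fell in crypts and rose in organoids, but its interaction was -1.68 with the run 440 crypts in place (adjusted p = 0.062). In that fit 1 enterocyte gene had a lower and 6 a higher interaction, so the enterocyte pattern rested on the run 385 crypts.

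Factors of intestinal identity fell in crypts for 11 of 22 and rose for 3, while 7 rose and 3 fell in organoids. There were 8 lower and 1 higher interactions (6.56% and 2.71% of all genes). The most negative was Maf, a bZIP factor, at -3.11 ± 0.50 (adjusted p = 0.0054), and -1.57 with the run 440 crypts in place (adjusted p = 0.017). Cdx2 (chr5:147300805-147307270), the homeobox factor that specifies intestine, was at 34.8 and 32.6 CPM in Eed KO crypts and 224 and 187 CPM in WT crypts, against 155 and 161 CPM in Eed KO organoids and 197 and 214 CPM in WT organoids. It fell by 2.61 on the log2 scale in crypts, and the interaction was -2.23 ± 0.21 (adjusted p = 0.0002). With the run 440 crypts in place the Cdx2 interaction was -0.36 (adjusted p = 0.31), and 1 of the 22 factors, Maf, had a lower call. Isx, an intestine-specific homeobox factor, was at 11.9 and 11.5 CPM in Eed KO crypts and 124 and 83.5 CPM in WT crypts, against 70.03 and 73.1 CPM in Eed KO organoids and 144 and 143 CPM in WT organoids. It fell in both settings, and its interaction of -2.14 ± 0.27 (adjusted p = 0.0011) turned to 0.44 with the run 440 crypts (adjusted p = 0.2). Leaving out single libraries gave 4 lower calls without WT crypt 1 or WT organoid 2, and 5 without WT crypt 2, Eed KO organoid 1, Eed KO organoid 2 or WT organoid 1. Of 15 stomach and colon genes, 6 rose and 2 fell in crypts, and 6 rose and 1 fell in organoids. Interaction calls on that list were 2 higher and 3 lower (2.71% and 6.56% of all genes). Car4 (chr11:84957786-84966044), a carbonic anhydrase of that list, was at 0.401 and 0.0873 CPM in Eed KO crypts and 109 and 89.1 CPM in WT crypts. In organoids Car4 stood at 0.735 and 1.40 CPM with Eed KO and 0.0771 and 0.0878 CPM in WT, a ratio of 13.0 (95% counting interval 3.25 to 113). Crypt and organoid effects on Car4 were opposite (interaction adjusted p = 1.9e-05).

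Enzymes of the urea cycle and arginine metabolism fell in crypts for 9 of 14, against 2 in organoids, and 3 had a lower interaction. Cps1 (chr1:67123026-67231259), carbamoyl phosphate synthetase, the entry enzyme of the cycle, was at 29.3 and 56.4 CPM in Eed KO crypts and 4304 and 3656 CPM in WT crypts, against 1522 and 2212 CPM in Eed KO organoids and 2743 and 3272 CPM in WT organoids. It fell by 6.54 on the log2 scale in crypts, and the interaction was -5.85 ± 0.45 (adjusted p = 7e-05), or -2.06 with the run 440 crypts in place (adjusted p = 0.017). Nos2, the inducible nitric oxide synthase, was at 1.28 and 1.40 CPM in Eed KO crypts and 32.6 and 36.2 CPM in WT crypts, against 7.35 and 13.1 CPM in Eed KO organoids and 1.39 and 1.40 CPM in WT organoids. Nos2 fell by 4.67 in crypts and rose by 2.86 in organoids (interaction -7.54 ± 0.47, adjusted p = 1.4e-05), and its interaction was -3.61 with the run 440 crypts in place (adjusted p = 0.0098).

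Of 45 class I antigen presentation and interferon-stimulated genes, 2 rose and 6 fell in Eed KO crypts, and 26 rose and 1 fell in Eed KO organoids. A lower interaction was called for 14 (6.56% of all genes). The median was 0.42 in crypts, 3.21 in organoids and -2.48 for the interaction. Gbp3, an interferon-induced guanylate binding GTPase (chr3:142560052-142573209), was at 9.79 and 14.9 CPM in Eed KO crypts and 4.10 and 7.15 CPM in WT crypts, and at 2.53 and 10.6 CPM in Eed KO organoids and 0 and 0 CPM in WT organoids. It was at least 53-fold higher in Eed KO than in WT organoids, and the interaction (adjusted p = 0.043) was lost under 8 of 18 alternatives, among them the run 440 crypts in place (adjusted p = 0.14). Its promoter is shown because it carries the element through which interferon acts. The letters are on the plus strand at chr3:142559794-142560093 (GRCm38.p6, RefSeq), and the capitals mark 2 overlapping reverse-strand matches to the core of the interferon-stimulated response element (GAAA, then any 2 bases, then GAAA).
Gbp3 promoter: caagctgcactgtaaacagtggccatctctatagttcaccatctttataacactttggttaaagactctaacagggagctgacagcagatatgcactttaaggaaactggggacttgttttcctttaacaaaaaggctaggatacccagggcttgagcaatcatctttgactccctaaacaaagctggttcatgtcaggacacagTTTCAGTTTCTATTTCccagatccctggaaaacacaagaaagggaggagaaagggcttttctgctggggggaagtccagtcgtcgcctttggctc
The same core on either strand was held by 16 of the 32 promoters of this list with a window (50%), and by 6 of the 11 with a lower interaction, beside 3.25% of all windows. H2-T22, a non-classical class I molecule, was at 37.6 and 41.3 CPM in Eed KO crypts and 26.8 and 32.0 CPM in WT crypts. Organoids held 14.95 and 25.3 CPM with Eed KO and 1.00 and 1.40 CPM in WT (interaction -3.64 ± 0.41, adjusted p = 0.00062). On the run 440 crypts the H2-T22 interaction was -0.61 and did not pass (adjusted p = 0.53). WT organoids were the low group for these genes. In run 440, H2-T22 was at 51.8 CPM in the Eed KO crypt library and 4.75 CPM in the WT crypt library. The related H2-T23 was at 155 and 22.5 CPM there, and Gbp3 at 9.13 and 4.87 CPM. For H2-T22 that WT library thus lay nearer the WT organoids than the WT crypts given above. Strain and genotype cannot be told apart for H2-T22, and the part of strain was not tested. H2-T22 and its relatives are near-identical in sequence, so the split of reads among them is uncertain.

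The organoid rise of interferon genes was uneven between its 2 Eed KO libraries. Irf7, a transcription factor that interferon induces, was at 21.7 CPM in Eed KO organoid 1 and 154 CPM in Eed KO organoid 2, against 3.62 and 5.88 CPM in WT organoids, with 41.3 and 44.3 CPM in Eed KO crypts and 22.3 and 21.9 CPM in WT crypts (interaction -3.26 ± 1.25, adjusted p = 0.2). Isg15, a ubiquitin-like interferon-induced protein, was at 4.25 and 5.59 CPM in Eed KO crypts and 2.37 and 1.97 CPM in WT crypts, against 6.21 and 33.7 CPM in Eed KO organoids and 0.308 and 0 CPM in WT organoids. Its interaction of -5.67 ± 1.45 (adjusted p = 0.049) was lost under 11 of 18 alternatives. The list's 14 lower calls became 34 without Eed KO organoid 1, 7 without WT crypt 2 or WT organoid 2, and 8 without Eed KO crypt 1, Eed KO crypt 2 or WT organoid 1. DESeq2 called 29 and the fit with no count filter 8, and 6 passed with the run 440 crypts in place. Of 9 class II presentation genes 5 fell and 1 rose in crypts and 2 rose in organoids, and 2 had a lower interaction. H2-Ab1, a class II chain, was at 91.8 and 64.7 CPM in Eed KO crypts and 165 and 298 CPM in WT crypts, against 0.735 and 2.89 CPM in Eed KO organoids and 0.077 and 0.088 CPM in WT organoids (adjusted p = 0.023). The H2-Ab1 call was lost under 6 of 18 alternatives. Immune cell markers moved the other way in the same crypts, where 13 of 26 rose, and their part in the class II values was not tested.

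Among genes of the Ah receptor and xenobiotic response, the named calls were glutathione transferases. Of 25, 8 rose and 3 fell in Eed KO crypts, and 1 rose and 3 fell in Eed KO organoids. A higher interaction was called for 6 (2.71% of all genes). Medians were 0.62 in crypts, -0.52 in organoids and 0.94 for the interaction. Gsta3 (chr1:21240589-21265361), a glutathione transferase, was at 93.3 and 115 CPM in Eed KO crypts and 3.09 and 4.32 CPM in WT crypts, against 121 and 104 CPM in Eed KO organoids and 156 and 128 CPM in WT organoids. WT crypts were the single low group, the crypt rise was 4.81 on the log2 scale, and the interaction was 5.14 ± 0.29 (adjusted p = 9.3e-06), or 5.03 with the run 440 crypts in place (adjusted p = 0.0019). Gsta4, of the same family, was at 132 and 150 CPM in Eed KO crypts and 7.10 and 5.92 CPM in WT crypts. Organoids held 288 and 237 CPM with Eed KO and 329 and 252 CPM in WT (interaction 4.58 ± 0.28, adjusted p = 1.3e-05). Gstm1, a mu-class transferase, rose in crypts and fell in organoids, with 84.3 and 63.5 CPM in Eed KO crypts and 49.8 and 38.5 CPM in WT crypts. Organoids held 495 and 444 CPM with Eed KO and 1389 and 984 CPM in WT (interaction 2.08 ± 0.31, adjusted p = 0.0029). Cyp1a1, the direct Ah receptor target, was at 0.401 and 15.4 CPM in Eed KO crypts and 11.0 and 1.504 CPM in WT crypts, and at 776 and 738 CPM in Eed KO organoids and 978 and 1301 CPM in WT organoids. All organoid libraries thus held far more Cyp1a1 than any crypt library, and its interaction did not pass (adjusted p = 0.84).

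Among Hedgehog and BMP genes, 7 of 17 rose and 2 fell in crypts and 6 rose in organoids. There were 2 higher and 2 lower interactions (2.71% and 6.56% of all genes). Ihh, the Hedgehog ligand of the intestinal epithelium, was at 70.7 and 57.6 CPM in Eed KO crypts and 25.8 and 18.5 CPM in WT crypts. Organoids held 44.6 and 60.1 CPM with Eed KO and 52.0 and 57.9 CPM in WT (interaction 1.60 ± 0.29, adjusted p = 0.0078). Bmp3, a BMP family ligand, was at 3.77 and 4.80 CPM in Eed KO crypts and 25.3 and 34.3 CPM in WT crypts. Organoids held 31.5 and 32.4 CPM with Eed KO and 52.9 and 37.1 CPM in WT (interaction -2.30 ± 0.33, adjusted p = 0.0024). On the run 440 crypts the interaction was 2.58 for Ihh (adjusted p = 0.0059) and -1.06 for Bmp3 (adjusted p = 0.083). The WT crypts were low for Ihh and the Eed KO crypts low for Bmp3, with the other groups closer together. Among 18 Notch and secretory fate genes, 5 rose and 1 fell in crypts and 4 rose in organoids. Hes6 had the 1 higher interaction (0.94 ± 0.19, adjusted p = 0.013, lost under 6 of 18 alternatives), beside 2.71% of all genes. Of 23 sterol synthesis genes, 10 fell in crypts and 6 in organoids, with medians of -0.52 and -0.54. The 12 mitochondrially encoded genes gave no call in edgeR or in DESeq2, with 0 at an unadjusted interaction p under 0.05 in edgeR, but 8 had a lower interaction with the run 440 crypts in place. Of 21 immediate early and heat shock genes, 12 rose in crypts and 6 in organoids, with 3 higher and 1 lower interactions.

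The largest interactions of single genes arose mostly where 1 group had almost no transcript. Of the 919 lower calls, 104 had at most 3 counts in WT organoids, and of the 380 higher calls, 40 had at most 3 counts in WT crypts and 23 in Eed KO organoids. Rdx, radixin, which ties the membrane to actin, was at 61.2 and 65.8 CPM in Eed KO crypts and 2.37 and 2.82 CPM in WT crypts, and at 43.6 and 33.3 CPM in Eed KO organoids and 0 and 0 CPM in WT organoids. It rose by 4.61 on the log2 scale in crypts and was at least 313-fold higher in organoids (interaction adjusted p = 0.0013). Nrn1, neuritin, was at 19.4 and 24.2 CPM in Eed KO crypts and 6.10 and 11.1 CPM in WT crypts. Organoids held 18.6 and 21.9 CPM with Eed KO and 0 and 0.088 CPM in WT, an organoid ratio of 494 (95% counting interval 88.3 to 19551). Cyyr1 was at 16.9 and 13.0 CPM in Eed KO crypts and 5.19 and 4.80 CPM in WT crypts, and at 11.4 and 8.82 CPM in Eed KO organoids and 0 and 0 CPM in WT organoids (adjusted p = 0.00069, and 0.11 with the run 440 crypts in place). All these genes rose in both settings, and WT crypts held transcript that WT organoids lacked or nearly lacked. Rbp7, a retinol binding protein, fell in crypts to 0.482 and 0.436 CPM with Eed KO, against 17.2 and 11.9 CPM in WT crypts, and rose in organoids to 6.37 and 5.52 CPM with Eed KO, against 0.0771 and 0.0878 CPM in WT organoids (adjusted p = 9.3e-06). In run 440 Rbp7 was higher, not lower, in the Eed KO crypt library (4.36 CPM) than in the WT crypt library (0.421 CPM), and the interaction did not pass (adjusted p = 0.11). Apol10a, of the apolipoprotein L family, fell in crypts to 0.883 and 0.786 CPM with Eed KO, against 146 and 138 CPM in WT crypts, and was at 3.19 and 7.67 CPM in Eed KO organoids and 2.93 and 1.49 CPM in WT organoids (interaction -8.66 ± 0.62, adjusted p = 7.1e-05). For Apol10a the interaction on the run 440 crypts was -2.62 (adjusted p = 0.09).

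On the higher side, several genes rose in crypts alone. Sftpd, the innate lectin surfactant protein D, was at 14.0 and 7.94 CPM in Eed KO crypts and 0 and 0 CPM in WT crypts, at least 80.2-fold higher. Organoids held 0.572 and 0.495 CPM with Eed KO and 0.231 and 0.088 CPM in WT (adjusted p = 0.014). Muc20, a membrane mucin, was at 13.5 and 6.02 CPM in Eed KO crypts and 0.273 and 0.094 CPM in WT crypts, against 0.082 and 0.247 CPM in Eed KO organoids and 0.231 and 0.439 CPM in WT organoids (interaction 6.61 ± 1.23, adjusted p = 0.0083; 3.71 and 0.056 with the run 440 crypts in place). Both had their transcript almost wholly in Eed KO crypts. Aqp8, a water channel, was at 1.77 and 2.18 CPM in Eed KO crypts and 0 and 0 CPM in WT crypts, but at 10.6 and 16.3 CPM in Eed KO organoids and 20.3 and 18.8 CPM in WT organoids (adjusted p = 0.0014). Vsig2 rose in crypts, to 24.0 and 19.03 CPM with Eed KO against 1.55 and 1.60 CPM in WT crypts, and fell in organoids, to 0.0817 and 0.0825 CPM with Eed KO against 1.46 and 3.60 CPM in WT organoids (adjusted p = 0.00015).

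Some of the largest values set the WT organoids, labelled FVB, apart from the other run 385 libraries. Hmga1b, a near-identical copy of Hmga1, was at 0.482 and 0 CPM in Eed KO crypts, 0 and 0 CPM in WT crypts, 0.0817 and 0.0825 CPM in Eed KO organoids, and 46.6 and 52.9 CPM in WT organoids. The run 440 Eed KO crypt library held 0.354 CPM of Hmga1b and the run 440 WT crypt library 49.5 CPM, although both are labelled with the mixed background. Retnlb, a goblet cell cytokine, had 77.2 and 61.7 CPM in WT organoids against 0 and 0.165 CPM in Eed KO organoids, and Rps3a3 had 293 and 224 CPM in Eed KO organoids against 0.539 and 0.351 CPM in WT organoids. The same run 440 libraries, Eed KO then WT, held 10.3 and 1480 CPM of Retnlb and 235 and 0.421 CPM of Rps3a3. Pla2g2a, Rps3a2 and Ces1d showed the same split in these libraries, and H2-T22, given above, split in the same direction as Rps3a3. For these genes strain and genotype cannot be told apart, and their interaction values are uncertain.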

How the data were processed

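Raw counts per gene were deposited by the authors for 2 sequencing runs, and per the labels the libraries were strand-specific poly(A) libraries. GRCm38, TopHat2 2.0.12, Bowtie 0.12.9, HTSeq and DESeq2 are named in the submitters' processing notes without their roles. Whether counting used strand was not stated there, so reads of overlapping and antisense genes may not be separated. Of 23969 genes, 1048 on X and Y were left out, and 14009 passed edgeR's expression filter (minimum count 10, minimum total 15). One fit of 4 group means to 8 libraries (edgeR 4.0.16, R 4.3.3; TMM, robust quasi-likelihood F test, 4 residual degrees of freedom) gave the crypt effect, the organoid effect and the interaction, with Benjamini-Hochberg adjustment over all genes tested. Nothing in the labels tells whether replicates came from separate mice or cultures, so the spread behind each p-value may be technical. The members and lists were chosen with earlier results of these data known. Among called protein-coding genes of at least 5 CPM, the text names from the 12 largest interactions of each sign, the 6 largest with opposite and the 6 largest with same-direction effects, and up to 3 per list. Some of those genes are not reported here. A few genes were named always (Eed, Cdkn2a, Cdkn1a, Olfm4, Lgr5, Lyz1, Mki67, Hoxb13, Igf2). Hoxa10, Mcm5, Itln1, Muc2, Spink4, Sct, Neurog3, H2-T22, Irf7 and Cyp1a1 fall outside this rule and were chosen after their values were seen. Promoters are RefSeq windows, matched for 9829 of the tested genes. Intervals on ratios cover counting error only. The 3 Ezh2 columns of run 440 were not used. Alternatives were DESeq2 1.42.0, RLE scaling, other count filters, a replicate block, left-out libraries, run 440 crypts, and fits with X and Y genes, without mitochondrial genes, without robust estimation or on 1 tissue alone.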

Additional observations from a re-analysis of the deposited data

Results flagged for a closer look

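The results below are genes, selected by the naming rule, whose effects passed the threshold in opposite directions in crypts and in organoids. The difference itself was tested as the interaction in edgeR. Over all tested genes, 42 rose in crypts and fell in organoids, and 86 went the other way. Fitted values of Retnlb, Vsig2, Car4, Rbp7, Gas7 and H2-Ab1 depend on the prior count, since 1 of their groups held at most 3 counts. Selected genes that rose in Eed KO crypts and fell in Eed KO organoids were Retnlb (fitted interaction 11.03), Vsig2 (8.53) and Gstm1 (2.08). For Retnlb strain and genotype cannot be told apart, and its log2 fold change in the run 440 crypts was -7.16. Selected genes that fell in Eed KO crypts and rose in Eed KO organoids were Car4 (-12.11), Rbp7 (-10.96), Cubn (-8.26), Gas7 (-8.17), Lct (-7.73), Nos2 (-7.54), Nts (-6.68), H2-Ab1 (-5.86), Clca1 (-4.26), Gip (-4.04), Fer1l6 (-3.43), Bambi (-2.65) and Wnt3 (-1.99). Cubn, the cubilin receptor of the brush border, differed between its WT crypt libraries, with 0.642 and 0.873 CPM in Eed KO crypts and 29.9 and 5.92 CPM in WT crypts, and its call was lost when any 1 of 4 libraries was left out.

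Genes on chromosomes X and Y were left out of every comparison above. When they were kept in the fit, 52 of the 471 tested on these chromosomes (11%) passed the interaction threshold. In the same fit 1308 of the 14009 other tested genes passed it, so the 52 are not read as an excess.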

How the results depend on the processing

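Counts of genes with a higher and a lower interaction were 406 and 796 with RLE scaling, 487 and 967 with DESeq2, 417 and 1122 with no count filter, 364 and 794 with a minimum count of 50, 387 and 853 without mitochondrial genes, 371 and 898 without robust estimation, 380 and 928 with X and Y genes kept, and 357 and 1314 with the run 440 crypts in place. In that last fit, which shares the organoid libraries, 425 of the 1299 genes passed again, 415 of them in the same direction, and 46 of the 102 rule-selected genes that had passed did not. With the run 440 crypts added and run as a term 54 of the 102 did not; the counts were 121 and 259, and the organoid effect had 1506 genes; the cause was not tested. Leaving out 1 library gave 208 to 541 higher and 527 to 1319 lower, 2494 to 4637 genes for the crypt effect and 1188 to 2688 for the organoid effect, which fell to 1188 without WT organoid 1 and 1478 without Eed KO organoid 1. The replicate numbers of crypts and of organoids share only a number: deviations of same-numbered libraries correlated at 0.141 in crypts and 0.282 in organoids, with 2 pairs each. A replicate block gave 550 higher and 1263 lower, 5457 genes for the crypt effect and 2788 for the organoid effect. Each tissue fitted alone gave 3805 and 2255.

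The Eed interaction, which lies near 0 and never passed, turned to 0.0383 with RLE scaling, 0.0383 with DESeq2, 0.0168 with a minimum count of 50, 0.0118 without mitochondrial genes, and was positive when Eed KO crypt 1, WT crypt 2, Eed KO organoid 2 or WT organoid 2 was left out, within a range of -0.340 to 0.345 over the left-out libraries. With the run 440 crypts in place the interaction turned to 3.45 for Rps3a2, 3.77 for Ces1d, 0.44 for Isx, 1.64 for Reg3a, -1.49 for Pla2g2a, 0.25 for Dclk1, 0.69 for Hmga1 and 0.45 for Nags; the cause was not tested. For genes whose WT groups both held at most 3 counts, the interaction is weakly determined by the counts.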
